A study of Mus musculus with 12 samples.

Results

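The 39 genes described here encode the stress-response regulators around the transcription factor ATF4 and the enzymes, transporters and aminoacyl-tRNA synthetases that supply amino acids for protein synthesis. They were chosen by name, though with earlier results of these data known, and were found as rows of the count tables by Ensembl identifier. All 39 were matched among the 55357 gene identifiers of each table. They fell into 8 stress regulators, 10 enzymes of amino acid synthesis, 6 enzymes of one-carbon metabolism, 5 amino acid transporters and 10 cytosolic tRNA synthetases.

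RNA was sequenced in 12 libraries that formed 4 groups of 3. The liver groups came from male C57BL/6J mice aged 8 to 9 weeks that received the coumarin esculetin, found in plants, by daily gavage for 7 days (90 mg/kg/day in 2.5% Tween-80) or that vehicle alone. Both liver groups ate a control diet (10% of energy as fat) for 4 days and then a high-fat diet (60%) for 3 days, so no liver here was free of the high-fat diet. The study states that every liver sample combined a pair of mice. The cell groups were RAW264.7 cells, a virus-transformed mouse macrophage line, and both were exposed for 24 hours to DIL-labelled oxidized LDL (oxLDL, the lipoprotein form taken up by scavenger receptors) at 25 µg/mL, together with 40 µg/mL esculetin or with DMSO as its solvent. No labels tell whether the cell replicates were separate cultures, so their p-values measure only the spread between these libraries.

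In the integrated stress response, kinases that sense missing amino acids, misfolded protein, heme shortage or viral RNA phosphorylate the translation factor eIF2. Most translation then slows while the mRNA of ATF4 is translated better, so the level of Atf4 mRNA is not a direct measure of ATF4 protein. ATF4 binds a composite C/EBP-ATF response element as a dimer with C/EBP proteins and switches on genes for amino acid uptake, for serine, glycine, asparagine and proline synthesis, for mitochondrial folate enzymes and for tRNA charging. The liver is also the main site of transsulfuration, glycine cleavage and transamination, so it holds several of these enzymes for reasons unrelated to stress.

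Libraries held 13752842 to 20346460 counts. In the liver, control replicate 1 stood apart: its score on the first principal component (39.9% of the variance) was -47.9, against -3.44 to 19.4 in the other 5 libraries, and the liver values of the genes named below are also given without it. For the cells that component carried 77.9% of the variance and parted treated from control libraries. The marker lists matched the labels. In the cells, Apoa1, Ttr, Serpina1a and Cyp3a11 of the 7 hepatocyte markers were at 0 in all 6 libraries and no hepatocyte marker exceeded 12 counts, while the 7 macrophage markers summed to 2323 to 2489 CPM in control cells. In the liver the hepatocyte markers summed to 113870 to 133886 CPM in controls and 104967 to 129751 CPM with esculetin, and the macrophage markers to 148 to 189 and 151 to 162 CPM. CPM denotes counts scaled to a common library size, so that libraries can be compared.

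The C/EBP-ATF element was searched as TGATGNAA on both strands (TTNCATCA on the other), from 250 bases before to 50 bases after the annotated start of each gene in GRCm39. It occurred in 10 of the 39 genes (25.6%), against 832 of 21627 counted protein-coding genes (3.85%). Counting only matches wholly before the start, it occurred in 8 of the 39 genes (20.5%), against 3.4% of all. The 30 bases around a match in each of these genes are shown because they carry the element by which many of these genes are known to be grouped. They are written 5′ to 3′ on the strand of the gene, with the element in capitals.
Atf3, chr1:190915622-190915651, minus strand: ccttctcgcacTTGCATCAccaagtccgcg
Ddit3, chr10:127126350-127126379, plus strand: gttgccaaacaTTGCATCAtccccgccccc
Chac1, chr2:119181519-119181548, plus strand: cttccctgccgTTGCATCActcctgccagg
Pycr1, chr11:120534659-120534688, minus strand: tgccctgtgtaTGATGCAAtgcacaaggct
Gpt2, chr8:86218828-86218857, plus strand: tatggctgggaTGATGAAActcaaggcgaa
Got1, chr19:43513128-43513157, minus strand: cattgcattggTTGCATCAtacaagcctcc
Aars1, chr8:111760472-111760501, plus strand: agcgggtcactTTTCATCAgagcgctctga
Tars1, chr15:11399752-11399781, minus strand: tagggcggggccaggagtcccgTTGCATCA

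The element shown began 199 bases before the start in Ddit3, 159 in Chac1, 149 in Gpt2, 103 in Atf3, 79 in Pycr1, 77 in Got1, 25 in Aars1 and 8 in Tars1. The windows of Chac1, Gpt2, Got1, Aars1 and Tars1 also lie in an exon of another annotated transcript of the same gene. Gars1 and Iars1 held the element after the start. In promoter windows from RefSeq on GRCm38.p6, of the same length, 12 of the 34 genes with an entry matched (35.3%), against 1219 of 27025 genes (4.51%). Asns, Trib3, Nupr1 and Yars1 were then among them, while Ddit3 and Gpt2, whose sequences are printed above, did not match there. The windows differ in annotation, build, genes covered and the starts searched per gene, which cannot be told apart here. A gene searched at more starts has more chances to match, so the shares from these searches are not directly comparable. The letters alone say nothing about binding.

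In the cells, most of these genes were lower with esculetin and 6 were higher, 4 of them stress regulators. With edgeR's quasi-likelihood test, 32 of the 39 genes passed an adjusted p-value of 0.05, where 57.7% of all 13277 tested genes did. Of these, 26 were lower with esculetin (66.7% of the genes, against 29% of all tested genes). Only 6 of the 39 were higher, a smaller share than the 28.7% of all tested genes. A fall of at least 2-fold was found in 17 genes (43.6%), against 8.47% of all tested genes, and the median log2 fold change over the 39 genes was -0.89, against -0.01 over all tested genes. In bulk RNA, fewer cells that make a transcript and less of it per cell cannot be told apart.

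**Figure D1:**
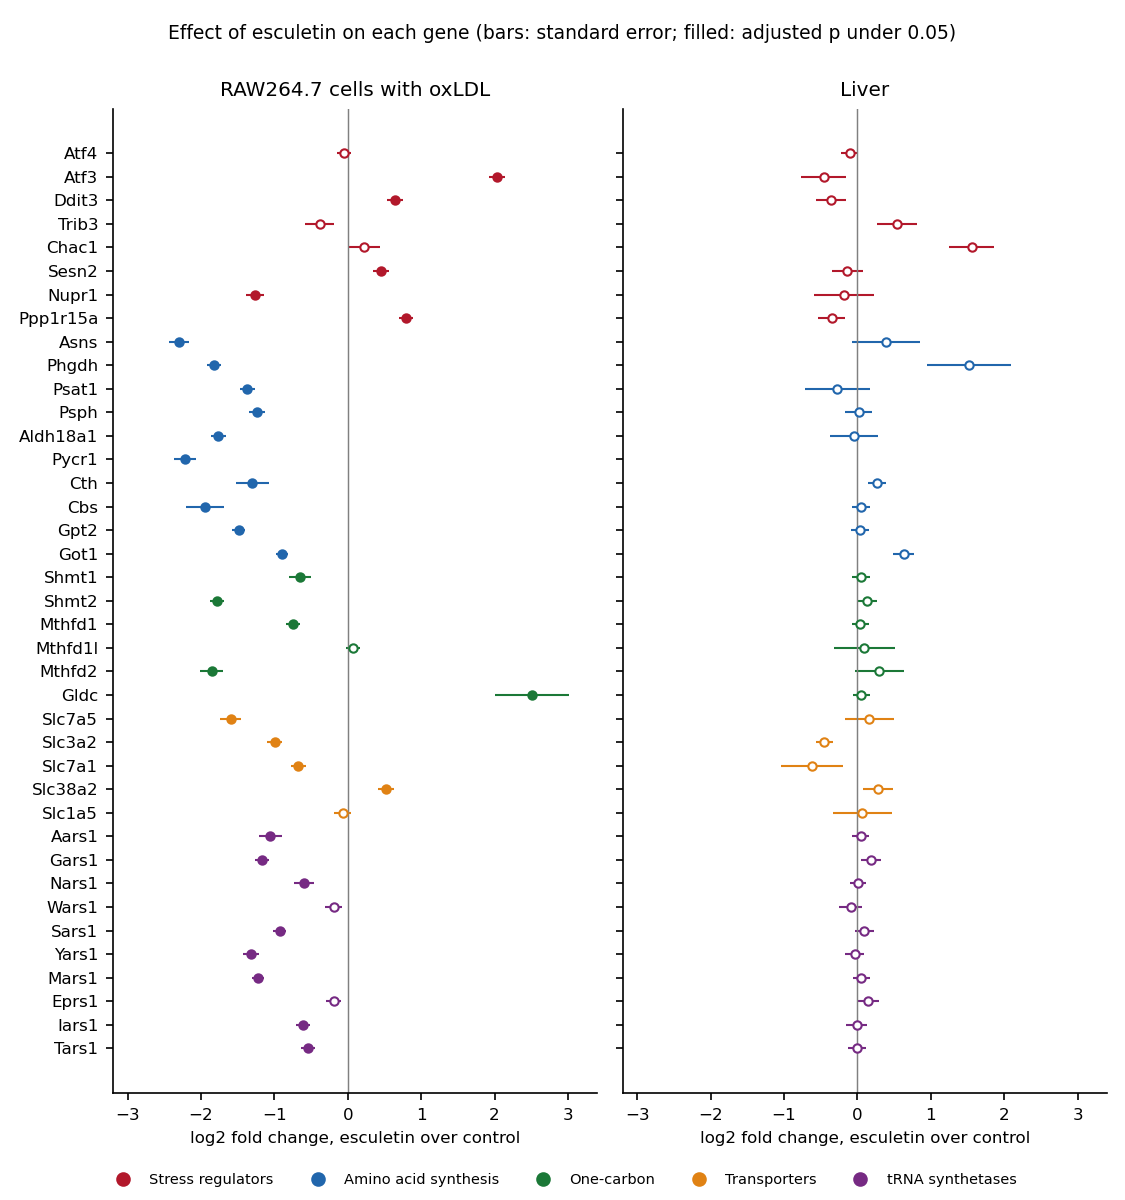
Log2 fold change (horizontal axis) of each of the 39 genes in RAW264.7 cells (left) and liver (right), with standard errors as bars, colours for roles, and filled points for genes with an adjusted p-value under 0.05. In the cells all 10 enzymes of amino acid synthesis lie between -2.30 and -0.89, while in the liver no point is filled.

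Among the stress regulators, 4 of 8 rose, 1 fell and 3 did not pass the test. The share that passed (62.5%) was near the 57.7% of all tested genes. Atf4 itself, the master regulator of the program, stood at 195, 203 and 202 CPM in control cells and at 171, 187 and 218 CPM with esculetin. The groups overlapped, and the log2 fold change was -0.05 (SE 0.10, adjusted p = 0.659). Atf3, a stress-induced repressor and activator of the same family, stood at 58.6, 63.8 and 61.8 CPM in control cells and at 212, 267 and 276 CPM with esculetin. Every esculetin library lay far above every control library (log2 fold change 2.03, SE 0.11, adjusted p = 1.55e-07).

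Ddit3 encodes CHOP, the factor linked to death under unresolved stress, and Ppp1r15a encodes GADD34, which recruits the phosphatase that reverses eIF2 phosphorylation. Ddit3 measured 17.5, 17.5 and 18.6 CPM in control cells and 26.1, 27.1 and 30.6 CPM with esculetin (log2 fold change 0.65, SE 0.11, adjusted p = 0.000482). Ppp1r15a measured 44.1, 50.3 and 47.0 CPM against 76.6, 79.2 and 89.9 CPM (0.80, SE 0.10, adjusted p = 3.42e-05). Sesn2, a sestrin that restrains mTORC1, measured 55.9, 71.1 and 69.2 CPM against 83.4, 92.5 and 92.8 CPM (0.45, SE 0.10, adjusted p = 0.00316). For all 3 genes the groups did not overlap, and the share of all tested genes that separate in this way was not counted. Ddit3 lies across 3820 bases of Mars1 on the opposite strand, and counting by strand was not stated, so the counts of both are uncertain. On its own strand Ddit3 also overlaps another counted entry of the same name (2925 bases) and the noncoding Gm20492 (1355 bases). Only the longer Ddit3 entry was used here.

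Nupr1, a small stress-induced chromatin protein, was the stress regulator that fell, from 25.2, 26.2 and 27.1 CPM to 10.2, 10.2 and 12.2 CPM (log2 fold change -1.27, SE 0.12, adjusted p = 7.34e-06). Trib3, a pseudokinase that damps ATF4 and AKT signalling, had a log2 fold change of -0.38 (adjusted p = 0.116), with 12.4 to 13.1 CPM in control cells. Its esculetin libraries measured 8.49, 7.36 and 13.3 CPM, and without esculetin replicate 3 the value was -0.69 and passed (adjusted p = 0.00192), as it did with no filter on low counts (-0.43, adjusted p = 0.0414). Chac1, which degrades glutathione, was low in both groups (3.21 to 4.25 CPM and 3.88 to 4.70 CPM), with a log2 fold change of 0.23 (adjusted p = 0.380).

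**Figure D2:**
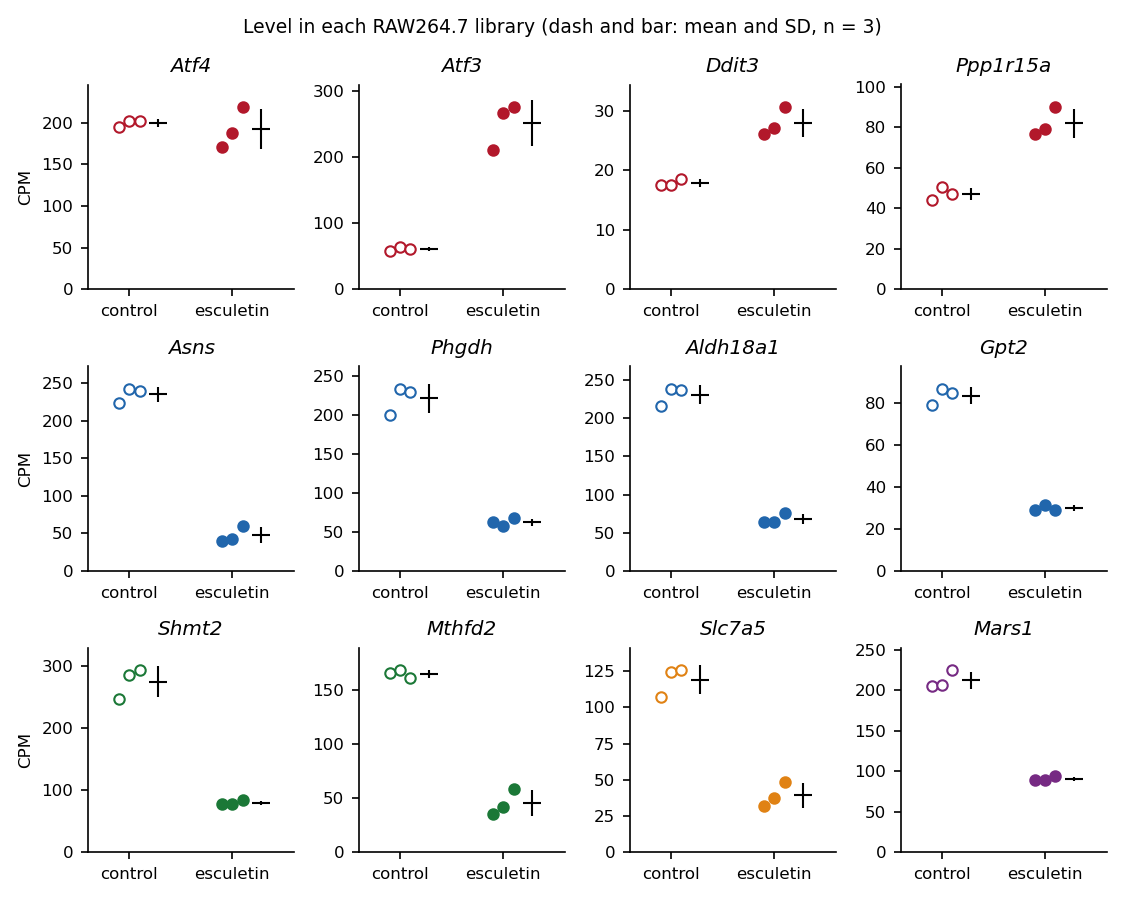
Level in CPM (vertical axis, from 0) of 12 genes in each RAW264.7 library, open for control and filled for esculetin, with the mean and SD of 3 libraries beside them. Atf4 overlaps between the groups, Atf3, Ddit3 and Ppp1r15a lie higher with esculetin, and the other 8 genes lie lower in every esculetin library.

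The 10 enzymes of amino acid synthesis fell without exception, with a median log2 fold change of -1.62. Asns makes asparagine from aspartate and glutamine. It stood at 224, 242 and 240 CPM in control cells and at 40.3, 42.2 and 60.1 CPM with esculetin (log2 fold change -2.30, SE 0.14, adjusted p = 3.06e-07). Its groups were separated by a wide gap, and esculetin replicate 3 was the highest of the treated libraries.

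Phgdh, Psat1 and Psph are the consecutive steps of serine synthesis from a glycolytic intermediate. Phgdh measured 201, 234 and 230 CPM in control cells and 62.5, 58.3 and 67.4 CPM with esculetin (log2 fold change -1.82, SE 0.10, adjusted p = 1.39e-07). Psat1 measured 511, 544 and 548 CPM against 232, 209 and 181 CPM (-1.37, SE 0.10, adjusted p = 1.03e-06). Psph was less abundant, with 41.5, 42.1 and 43.6 CPM against 16.6, 18.0 and 19.4 CPM (-1.24, SE 0.11, adjusted p = 3.28e-06). All 3 steps of the pathway were thus lower in every esculetin library than in any control library.

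Aldh18a1 and Pycr1 make proline from glutamate. Aldh18a1 measured 217, 239 and 238 CPM in control cells and 64.3, 63.7 and 76.2 CPM with esculetin (log2 fold change -1.76, SE 0.10, adjusted p = 1.63e-07). Pycr1 measured 21.9, 26.5 and 29.1 CPM against 5.42, 5.25 and 5.97 CPM (-2.22, SE 0.15, adjusted p = 6.02e-07), a fall exceeded among the 39 genes only by Asns. Its locus overlaps Myadml2 on the same strand (2128 bases), so its counts are uncertain. The transaminase Gpt2, which joins pyruvate and glutamate metabolism in mitochondria, measured 78.9, 86.9 and 84.9 CPM against 28.9, 31.6 and 29.2 CPM (-1.48, SE 0.09, adjusted p = 3.16e-07). Its cytosolic aspartate counterpart Got1 fell least of the 10, by 0.89 on the log2 scale (SE 0.08, adjusted p = 4.66e-06). The transsulfuration enzymes Cbs and Cth, which lead from homocysteine to cysteine, were scarce in these cells, with 4.61 to 6.03 CPM in controls and 1.12 to 2.51 CPM with esculetin. Even so both passed, with log2 fold changes of -1.94 (SE 0.26) for Cbs and -1.30 (SE 0.23) for Cth.

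One-carbon metabolism carries single carbons on folate for purine, thymidylate and methionine synthesis, in a mitochondrial and a cytosolic branch. Of its 6 enzymes 4 fell. The deepest falls were in the mitochondrial pair that takes a carbon from serine. Shmt2 measured 247, 285 and 294 CPM in control cells and 77.8, 78.3 and 84.2 CPM with esculetin (log2 fold change -1.78, SE 0.09, adjusted p = 1.33e-07), the smallest p-value among the 39 genes. Mthfd2 measured 165, 168 and 161 CPM against 35.6, 42.0 and 58.8 CPM (-1.86, SE 0.15, adjusted p = 2.18e-06). The cytosolic enzymes fell less, Mthfd1 by 0.75 (SE 0.09) and Shmt1 by 0.65 (SE 0.15) on the log2 scale, and that contrast between the branches was not tested. Shmt1 shares its locus with Top3a on the same strand and Smcr8 on the other, which makes its counts uncertain.

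Mthfd1l, the mitochondrial synthetase that releases formate at the end of that branch, did not pass, with a log2 fold change of 0.07 (SE 0.10, adjusted p = 0.563) and overlapping groups (185 to 198 CPM and 185 to 234 CPM). Gldc, the decarboxylase of the glycine cleavage system, was called higher (2.51, SE 0.50, adjusted p = 0.00130) but rested on few reads, with 9, 2 and 6 counts in control cells and 24, 33 and 20 counts with esculetin.

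Of the 5 transporters 3 fell, 1 rose and 1 did not pass. Slc7a5 and Slc3a2 are the light and heavy chains of the LAT1 exchanger for large neutral amino acids. Slc7a5 measured 107, 125 and 125 CPM in control cells and 31.8, 37.6 and 48.5 CPM with esculetin (log2 fold change -1.60, SE 0.14, adjusted p = 3.64e-06). Slc3a2 measured 194, 209 and 205 CPM against 89.0, 96.6 and 119 CPM (-0.997, SE 0.11, adjusted p = 1.62e-05). Slc7a1, a carrier of arginine and lysine, fell by 0.67 on the log2 scale (SE 0.10).

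Slc38a2, the stress-responsive carrier of small neutral amino acids, moved the other way, from 597, 526 and 526 CPM to 717, 743 and 910 CPM (log2 fold change 0.52, SE 0.11, adjusted p = 0.00150). Slc1a5, a glutamine exchanger, stood at 161 to 176 CPM in control cells and 138 to 191 CPM with esculetin (-0.07, SE 0.11, adjusted p = 0.626). The transporters therefore did not share 1 direction.

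Aminoacyl-tRNA synthetases load each amino acid on its tRNA. Of the 10 cytosolic members 8 fell and none rose, with a median log2 fold change of -0.77. Mars1, for methionine, measured 205, 207 and 225 CPM in control cells and 89.7, 89.1 and 93.9 CPM with esculetin (log2 fold change -1.22, SE 0.08, adjusted p = 5.64e-07). Gars1, for glycine, measured 312, 351 and 334 CPM against 134, 147 and 163 CPM (-1.17, SE 0.09, adjusted p = 1.96e-06). Aars1, for alanine, had the largest standard error of the 10, with 302, 334 and 318 CPM against 117, 142 and 201 CPM (-1.05, SE 0.16, adjusted p = 0.000178). Aars1 overlaps Exosc6 on its own strand (1326 bases), which makes its counts uncertain.

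The falls of the remaining synthetases ran from 1.31 for Yars1 (tyrosine) over 0.92 for Sars1 (serine), 0.61 for Iars1 (isoleucine) and 0.59 for Nars1 (asparagine) to 0.54 for Tars1 (threonine), on the log2 scale. Wars1 (tryptophan) and the fused enzyme Eprs1 (glutamate and proline) both had a log2 fold change of -0.19, with adjusted p-values of 0.189 and 0.116. Without esculetin replicate 3, Wars1 passed with -0.34 (adjusted p = 0.00864), and Eprs1 passed with -0.26 when scaled by library size only (adjusted p = 0.0399). Of the 10 genes whose promoter window held the C/EBP-ATF element, 7 fell in the cells, 2 rose (Atf3 and Ddit3) and 1 did not pass (Chac1), so genes with the sequences printed above were found on both sides.

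The treated libraries differed among themselves. Esculetin replicate 3 was the highest of the 3 treated libraries in 22 of the 26 genes that fell (84.6%), whereas it was the highest in 30.6% of all 3855 genes that fell. The median level of the 26 genes was 39.03%, 41.25% and 46.34% of the control mean in esculetin replicates 1, 2 and 3. Among the genes that rose, replicate 3 was also the highest treated library for Atf3, Ddit3, Ppp1r15a, Sesn2 and Slc38a2, though not for Gldc. On the first principal component replicate 3 lay furthest from the control libraries (60.5, against 40.8 and 51.6 in replicates 1 and 2). These are descriptions of 3 libraries and were not tested. In the same libraries markers of dividing cells were also lower. The 12 proliferation markers summed to 1681 to 1875 CPM in control cells and to 1108 to 1218 CPM with esculetin. Of the 12, 9 were called lower and Pcna higher, where 29% of all tested genes were called lower and 28.7% higher. Of the 7 macrophage markers 5 were called higher, their sum being 5039 to 7597 CPM with esculetin, and the rise was led by Lyz2 (log2 fold change 2.45). The part of these changes in the results above was not tested.

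**Figure D3:**
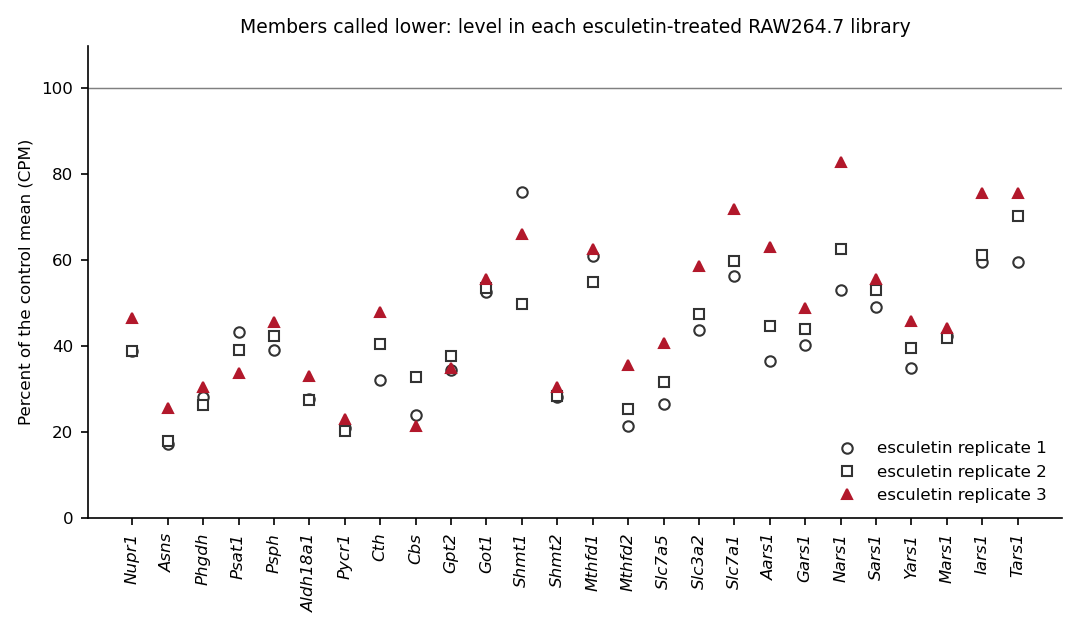
Level of each of the 26 genes that fell in the cells, in each esculetin library, as a percent of the mean of the 3 control libraries (vertical axis, line at the control mean). Replicate 3 (triangles) is the highest of the 3 for 22 of the 26 genes, and no point reaches the control mean.

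In the liver none of the 38 genes that passed the filter on low counts had an adjusted p-value under 0.05 with edgeR, where 11 of 12813 genes did (0.0859%). Pycr1 did not pass the filter. Unadjusted, 5 of the 38 genes passed 0.05, 4 of them higher and 1 lower, beside 8.37% of all tested genes. DESeq2 called 2 of the genes at its adjusted p-value, among 98 of all genes, and limma-voom called none, among 11. The median log2 fold change of the 38 genes was 0.04, against -0.02 over all tested genes.

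Chac1 measured 1.23, 1.33 and 1.57 CPM in control livers and 5.61, 3.38 and 3.17 CPM with esculetin (log2 fold change 1.56, SE 0.30, adjusted p = 0.110). Without control replicate 1 the value was 1.495 (adjusted p = 0.151), and without esculetin replicate 1 it was 1.23 (adjusted p = 0.616). Got1 measured 187, 139 and 202 CPM against 256, 289 and 272 CPM (log2 fold change 0.63, SE 0.15, adjusted p = 0.209). Its value was 0.68 without control replicate 1 (adjusted p = 0.140). Chac1 and Got1 were the genes that DESeq2 called, with adjusted p-values of 0.00583 and 0.00954. They were also called by edgeR with no filter, with the replicate block and in the 4-group fit, settings that called 339, 123 and 33 of all genes in the liver.

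Cth, abundant in liver, measured 420, 489 and 471 CPM in controls and 558, 541 and 563 CPM with esculetin (log2 fold change 0.27, SE 0.12, adjusted p = 0.573). Phgdh was scarce in the liver, with 0.184, 0.839 and 0.175 CPM against 1.42, 0.779 and 1.42 CPM (1.52, adjusted p = 0.501), and its value was 2.70 without control replicate 2 (adjusted p = 0.333). Slc3a2, the gene under 0 among the 5 with an unadjusted p-value below 0.05, measured 37.5, 41.3 and 40.6 CPM against 29.7, 28.6 and 28.9 CPM (-0.45, SE 0.12, adjusted p = 0.251). Without control replicate 1 these values were 0.21 for Cth (adjusted p = 0.513), 1.20 for Phgdh (adjusted p = 0.580) and -0.49 for Slc3a2 (adjusted p = 0.140).

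The tRNA synthetases hardly varied in the liver: their 10 log2 fold changes ran from -0.09 to 0.19, with standard errors of 0.11 to 0.16. Those of the 6 one-carbon enzymes ran from 0.04 to 0.30. Atf4 stood at 108, 131 and 116 CPM in control livers and 104, 118 and 108 CPM with esculetin (log2 fold change -0.11, SE 0.12, adjusted p = 0.838). Atf3, the largest rise in a stress regulator in the cells, measured 2.40, 2.17 and 3.96 CPM against 1.96, 2.34 and 1.88 CPM (-0.46, SE 0.30, adjusted p = 0.702). Asns, the deepest fall in the cells, stood at 0.491 to 1.92 CPM in control livers, and its log2 fold change of 0.39 had an SE of 0.46 at that depth. Without control replicate 1 the synthetases ran from -0.15 to 0.30 and the one-carbon enzymes from -0.01 to 0.29, with -0.16 for Atf4, -0.56 for Atf3 and 0.03 for Asns.

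The effect in the cells was compared with that in the liver by an interaction contrast over all 12 libraries. It passed the adjusted threshold for 30 of the 39 genes (27.1% of all 15709 tested genes passed) and lay below 0 for 26 of them (13.7% of all tested genes). Below 0 means that the log2 change was more negative in the cells than in the liver. Phgdh had the lowest value, -3.37 (SE 0.45, adjusted p = 5.86e-05), followed by Asns with -2.70 (SE 0.43, adjusted p = 0.000257), Pycr1 with -2.54 (SE 0.61, adjusted p = 0.00533) and Mthfd2 with -2.21 (SE 0.32, adjusted p = 0.000133). These 4 genes were below 2 CPM in every liver library. The contrast shared each gene's estimate of spread between cells and liver, so its standard errors and p-values can be too small for such genes. For Phgdh the SE was 0.57 in the liver fitted alone. Without liver control replicate 2, Phgdh was at -4.55, and without liver esculetin replicate 3 Pycr1 was at -1.80 (adjusted p = 0.0746). Of the enzymes abundant in both, Shmt2 had -1.96 (SE 0.17), Gpt2 -1.56 (SE 0.16) and Got1 -1.56 (SE 0.18). Cbs, with -2.03 (SE 0.23), and Cth, with -1.60 (SE 0.20), were abundant in the liver and scarce in the cells.

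The contrast lay above 0 for Atf3 (2.45, SE 0.27), Gldc (2.39, SE 0.38), Ppp1r15a (1.10, SE 0.21) and Ddit3 (0.96, SE 0.23). It did not pass for Atf4 (0.01, SE 0.15), Trib3, Sesn2, Mthfd1l, Slc7a1, Slc38a2, Slc1a5, Wars1 and Eprs1. Dose, route, duration, lipid load and kind of sample all differ between the experiments and cannot be told apart in this contrast.

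Levels without esculetin differed between the sample types. They are given per kilobase of all annotated exons of a gene merged, which came to 2374 bases for Atf4 and 11709 for Asns. The order of the genes therefore also depends on the annotation. Per kilobase of exon, the most abundant of the 39 genes in control cells were Psat1 (90.8 ± 3.43 CPM per kilobase, SD, n = 3), Atf4 (84.1 ± 1.82), Sars1 (83.9 ± 5.15), Phgdh (78.4 ± 6.45) and Shmt2 (67.0 ± 6.11). Atf4, Sars1 and Phgdh did not differ beyond their spread. In control livers they were Cth (95.1 ± 7.37 CPM per kilobase), Shmt2 (70.3 ± 10.8), Mthfd1 (49.9 ± 3.44), Atf4 (49.9 ± 4.74), Gpt2 (49.1 ± 5.25) and Cbs (48.0 ± 1.81), the last 4 within each other's spread. Psat1 and Phgdh, at the top in the cells, stood at 0.153 ± 0.0674 and 0.141 ± 0.135 CPM per kilobase in the liver. Conversely Gldc stood at 30.1 ± 0.937 CPM per kilobase in the liver and 0.0288 ± 0.0179 in the cells.

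**Figure D4:**
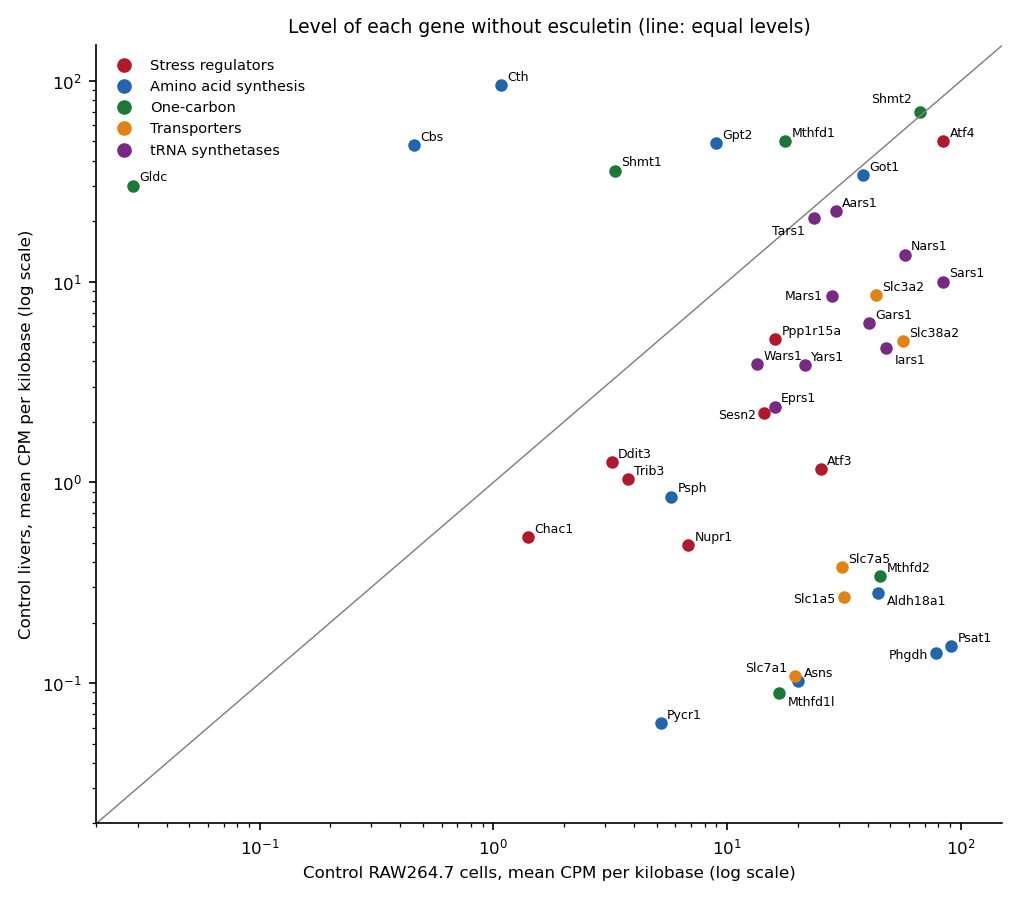
Mean level of each of the 39 genes without esculetin, as CPM per kilobase of exon, in control RAW264.7 cells (horizontal axis, log scale) and control livers (vertical axis, log scale), with the line of equal levels. Cth, Cbs, Gldc, Shmt1, Gpt2, Mthfd1 and Shmt2 lie above the line, and Psat1 and Phgdh lie far below it.

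Other genes of the pathway, listed by role but with earlier results of these data known, gave a mixed picture in the cells. Over all these lists 41 of 92 tested genes fell and 18 rose, beside 29% and 28.7% of all tested genes. Of 15 genes of eIF2 signalling, 2 rose and 2 fell. Eif2ak2, the kinase PKR that senses viral RNA, rose by a log2 fold change of 1.53, and Impact, an inhibitor of the amino acid sensor GCN2, by 1.34. Ppp1r15b, the constitutive partner of the eIF2 phosphatase, had -0.42 and Eif2b2, a subunit of the exchange factor eIF2B, -0.27. Eif2b2 lost its call in 8 of 16 alternatives, 4 of them without 1 library. The other kinases did not pass, with log2 fold changes of 0.02 for Eif2ak1, -0.13 for Eif2ak3 and 0.07 for Eif2ak4.

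Among 15 tested other genes linked to ATF4, 9 fell and 3 rose. Pck2, the mitochondrial carboxykinase, fell most (log2 fold change -2.11), from 79.8, 90.5 and 94.3 CPM to 21.1, 19.7 and 20.5 CPM. It was followed by the pro-apoptotic Bbc3 (-1.73) and by the carriers Slc1a4 (-1.61) and Slc6a9 (-1.51). Of 13 other cytosolic synthetases and their scaffold proteins, 7 fell and 3 rose. Without esculetin replicate 2 the calls were 6 falls and no rise. Vars1 (valine) had a log2 fold change of -1.90, Kars1 (lysine) -1.09, the scaffold protein Aimp1 -0.90 and Farsb (phenylalanine) -0.52.

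Of 17 mitochondrial synthetases 5 fell and 4 rose, with a median log2 fold change of 0.10, and their share called (52.9%) was near the 57.7% of all tested genes. Those with the smallest p-values were Fars2 (-1.42), Vars2 (-1.23), Mars2 (-0.75) and Wars2 (0.77). Lars2, named here after its values were seen, had the largest value of the list (4.62), which rested on esculetin replicate 1 with 11760 CPM. The other esculetin libraries held 127 and 199 CPM and the control libraries 160 to 167 CPM, and without replicate 1 the log2 fold change was -0.01 (adjusted p = 0.961).

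Of 19 tested other folate and methionine genes 11 fell and 4 rose. Mat2a, which makes S-adenosylmethionine, rose (2.24), from 36.1, 29.5 and 30.5 CPM to 125, 140 and 190 CPM. Ahcy, which clears S-adenosylhomocysteine, fell (-1.67), as did the mitochondrial formyl-folate dehydrogenase Aldh1l2 (-1.21) and the purine enzyme Atic (-1.18). Of 13 tested other amino acid enzymes 7 fell and 2 rose, and Bcat2 (-1.26), Got2 (-0.96) and Oat (-0.91) were among those with the smallest p-values.

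**Figure D5:**
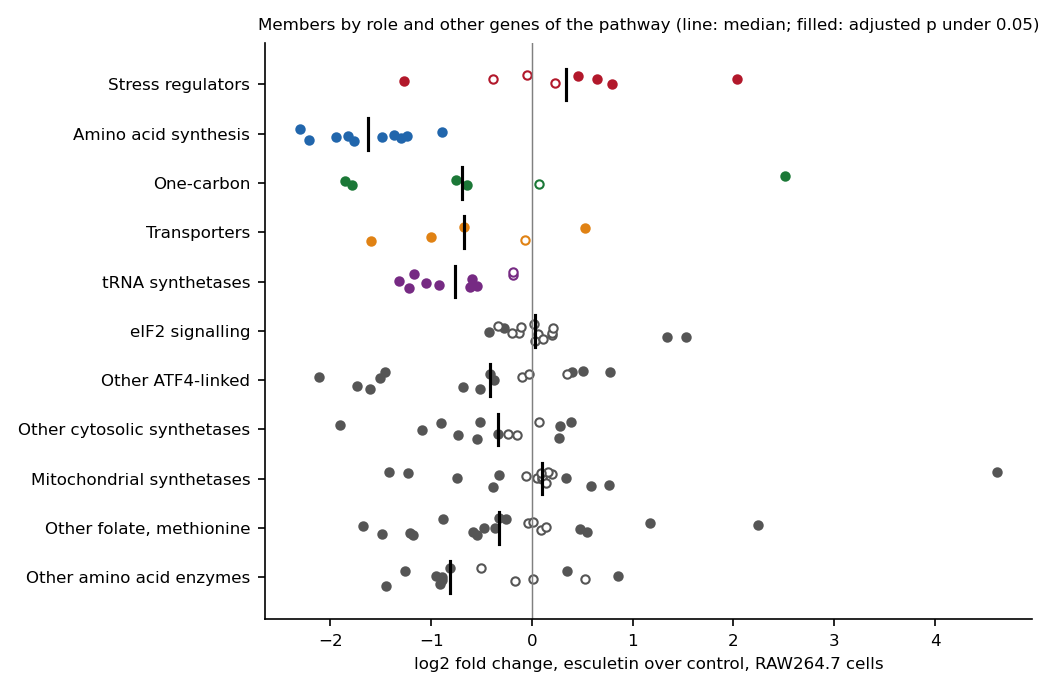
Log2 fold change in RAW264.7 cells (horizontal axis) of the 39 genes by role (colours) and of other genes of the pathway (grey), with filled points for an adjusted p-value under 0.05 and a line at each median. The amino acid synthesis genes have the lowest median (-1.62), and the medians of eIF2 signalling (0.03) and of the mitochondrial synthetases (0.10) lie close to 0.

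In the liver none of the genes in these other lists passed an adjusted p-value of 0.05 with edgeR, and 14 of 94 passed unadjusted, 7 higher and 7 lower, beside 8.37% of all tested genes. DESeq2 called 2 of the genes linked to ATF4 and limma-voom called none in any list. Fgf21, the stress hormone of the liver, had a log2 fold change of -2.004 (adjusted p = 0.186) and Ddit4, an inhibitor of mTORC1, had 1.19 (adjusted p = 0.244). Bbc3 stood at -0.71 (adjusted p = 0.248), Slc1a4 at -0.59 and Eif2ak3 at -0.64. Without control replicate 1 these were -1.98 for Fgf21, 0.93 for Ddit4, -0.77 for Bbc3, -0.41 for Slc1a4 and -0.56 for Eif2ak3, and Fgf21 was at -2.67 without esculetin replicate 2. The higher genes were, besides Ddit4, Fars2 (0.36), Nars2 (0.35), Aldh1l1 (0.40), Gnmt (0.41), Oat (0.42) and Sds (0.45). Without control replicate 1 these were 0.22 for Fars2, 0.23 for Nars2, 0.25 for Aldh1l1, 0.25 for Gnmt, 0.34 for Oat and 0.45 for Sds.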

How the data were processed

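Raw counts per gene, deposited by the authors as separate liver and cell tables, were used as they stood, and no sample column was left out. The authors made libraries with a NEBNext Ultra kit, sequenced paired ends and aligned them to GRCm39 with HISAT2 2.2.1, and counted reads per gene with featureCounts. The submitters' notes also list mm10, with no role. Strandedness, the handling of multi-mapped reads and the annotation release are not given in the sources used here. Names came from GENCODE vM39 (54749 of 55357 identifiers).

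The members and lists were chosen with earlier results of these data known. Liver and cell counts were fitted separately with edgeR 4.0.16 in R 4.3.3 (filterByExpr, TMM factors, quasi-likelihood test, two-sided, Benjamini-Hochberg adjustment over all tested genes, with an adjusted p-value below 0.05 as the call). The difference of effects was a contrast in a 4-group model of the 12 libraries, in which the spread of each gene was estimated over cells and liver together. SE is the log2 fold change over the root of F. CPM used TMM factors, and errors cover the spread between libraries (pools of mice in the liver) and counting error together. The scripts were tested on simulated counts. All 39 genes were accounted for. Up to 4 genes with the smallest p-values were named in each other list, and the 10 smallest p-values among the 39 genes in full. Alternatives were RLE, upper quartile and library size scaling, no filter, at least 1 CPM in 3 libraries, DESeq2 1.42.0, limma-voom 3.58.1, the study's criterion (unadjusted p-value under 0.05 and fold over 1.5), a replicate block, a joint fit and leaving out each library. A few items of the lists and 1 promoter match are not reported here. Promoter windows from RefSeq were added after the data were seen. Figures were drawn with matplotlib 3.10.9 in Python 3.11.15.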

Additional observations from a re-analysis of the deposited data

Results flagged for a closer look

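For 30 of the 39 genes the effect of esculetin in the cells differed from that in the liver at an adjusted p-value under 0.05 (edgeR's interaction contrast), where 27.1% of all tested genes did. Values are the log2 change in the cells minus that in the liver. Among the stress regulators the difference was 2.45 for Atf3, 1.10 for Ppp1r15a and 0.96 for Ddit3, and below 0 for Chac1 (-1.38) and Nupr1 (-1.12). All 10 enzymes of amino acid synthesis lay below 0, with -3.37 for Phgdh, -2.70 for Asns, -2.54 for Pycr1, -2.03 for Cbs, -1.75 for Aldh18a1, -1.60 for Cth, -1.56 for Gpt2, -1.56 for Got1, -1.29 for Psph and -1.11 for Psat1. Of the one-carbon enzymes, Mthfd2 had -2.21, Shmt2 -1.96, Mthfd1 -0.83 and Shmt1 -0.74, while Gldc lay above 0 with 2.39. The chains of LAT1 had -1.79 (Slc7a5) and -0.59 (Slc3a2). The tRNA synthetases had -1.32 (Yars1), -1.32 (Mars1), -1.40 (Gars1), -1.14 (Aars1), -1.06 (Sars1), -0.65 (Nars1), -0.64 (Iars1) and -0.58 (Tars1).

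Without 1 library, 22 of these 30 genes kept their call in every case and 8 did not. Nupr1 lost it in 10 of the 12 cases (lowest -1.16, highest -0.72) and Psat1 in 5, with -0.78 without liver control replicate 1 (adjusted p = 0.0971). Chac1 was at -0.995 (adjusted p = 0.0609), Slc3a2 at -0.50 (adjusted p = 0.0564) and Nars1 at -0.51 (adjusted p = 0.0801) without liver esculetin replicate 1. Tars1 was at -0.47 (adjusted p = 0.0663) without liver esculetin replicate 2, and Pycr1 at -1.80 (adjusted p = 0.0746) and Iars1 at -0.58 (adjusted p = 0.0525) without liver esculetin replicate 3.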

How the results depend on the processing

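In the cells, 29 of the 32 genes called kept their direction and call in all 16 alternatives, and the number called ran from 29 to 34. Sesn2, Slc38a2 and Tars1 missed the fold of 1.5 in the study's criterion. The sign of 3 uncalled genes turned without 1 library: Atf4 (0.024, lowest value -0.158) and Slc1a5 (0.037, lowest value -0.204) without esculetin replicate 1, and Mthfd1l (-0.046, highest value 0.136) without esculetin replicate 3. In the liver, 2 genes were called with no filter, with DESeq2, with the replicate block and with the joint fit, and 3 under the study's criterion, against 0. All genes called in the liver rose with them, from 11 to 339, 98, 123, 33 and 499. Leaving out 1 library gave 0 in the liver, 32 to 34 in the cells and 25 to 31 for the difference of effects.

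Of the other lists, the study's criterion called 2 eIF2 signalling genes in the cells and 1 in the liver (against 4 and 0), 7 and 4 other genes linked to ATF4 (12 and 0), 4 other cytosolic synthetases (10), 5 mitochondrial synthetases (9) and 8 folate and methionine genes (15). Under that criterion all genes called went from 7667 to 5041 of 13277 in the cells and from 11 to 499 in the liver. For the genes linked to ATF4, no filter called 3 in the liver, and DESeq2 and the replicate block 2 each. No filter also called 1 folate or methionine gene there. Without 1 library the other cytosolic synthetases numbered 6 to 9, with 6, all of them falls, without esculetin replicate 2. The 4 under the study's criterion were falls too. Eif2b2 lost its call with RLE factors (adjusted p = 0.0599), DESeq2 (0.0699), the joint fit (0.0665) and the study's criterion, and in 4 cases without 1 library.

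Whether the replicate numbers pair the samples cannot be decided from these libraries. As deviations from their group means, same-numbered libraries correlated at 0.16, -0.03 and 0.08 in the cells and at 0.14, -0.01 and 0.10 in the liver. Not every library correlated best with its own number, but deviations from means of 3 libraries cannot exclude pairing. The block left the calls in the cells at 32 of the 39 genes, raised those in the liver from 0 to 2 and those of the difference from 30 to 31. Genes under about 2 CPM in the liver (Asns, Phgdh, Psat1, Mthfd2 and others) have standard errors too wide there to show small changes.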
